A study of Mus musculus with 6 samples.

Results

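The genes described here encode the interleukin-1 (IL-1) family cytokines and their regulators (Il1a, Il1b, Il18, Il1rn, Il1r2 and Il1rap), the inflammasome sensor NLRP3 (Nlrp3), and the cytokines TNF, IL-6 and IL-10 (Tnf, Il6 and Il10). They were taken by symbol as the 10 matching rows of a table of 39179 genes. They were followed in tumor-associated macrophages (TAMs) from mouse melanomas that could or could not make prostaglandins through the cyclooxygenases COX-1 and COX-2. In TAMs from Ptgs-deficient tumors, Il1b and Il1rn did not differ from Ptgs-competent tumors beyond the spread between libraries. The decoy receptor Il1r2 and the receptor subunit Il1rap had lower values, and Il6 was seen only in that group. Of the 7 members that could be tested, 0 passed the threshold for a call.

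TAMs were sorted from melanomas grown under the skin. The injected cell line had been established from a C57BL/6 mouse with a mutant Braf allele, a Tyr::CreERT2 transgene and deletion of p16INK4a. The Ptgs-competent group (3 libraries) bore the parental tumor cells. The Ptgs-deficient group (3 libraries) bore the same cells with Ptgs1 and Ptgs2 removed by CRISPR/Cas9, so that the macrophages themselves were of host genotype in both groups and their own Ptgs genes do not check the labels. Hosts were C57BL/6 mice 8 weeks old, and each library came from a pool of tumors, so that the spread shown is between pools. The sort kept live cells positive for CD45, CD11b and F4/80, negative for NK1.1 and Ly6G, and negative or dim for Ly6C. The harvest day of these tumors was not given in the sources used here.

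Libraries held between 4431184 and 8760679 counts. All 12 macrophage markers on the marker list were detected, and the melanocyte genes Pmel, Mlana, Tyr, Tyrp1, Dct and Sox10 were at 0 counts in every library. Ptgs-competent replicate 3 stood apart, since its summed macrophage markers reached 7775 CPM, against 20512 and 21159 CPM in the other Ptgs-competent libraries. In the Ptgs-deficient libraries the sums were 27014, 26127 and 31586 CPM, above all 3 Ptgs-competent sums. Of the 12 markers, 1 had a negative log2 fold change, and 0 were called. Values in CPM are counts scaled to library size with TMM factors. Log2 CPM correlated at 0.480 to 0.553 among Ptgs-competent libraries and at 0.600 to 0.720 among Ptgs-deficient libraries. Between the groups the correlations were 0.407 to 0.620. The libraries read the 3′ end of transcripts, so that a CPM does not scale with transcript length, and levels of different genes can be set side by side on that scale.

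IL-1α and IL-1β are ligands of the same receptor, which pairs IL-1 receptor type 1 with the accessory subunit encoded by Il1rap. IL-1β and IL-18 are made as inactive precursors and are cut by caspase-1 within inflammasomes such as the one built by NLRP3. The pathway is held back by a secreted receptor antagonist (Il1rn) and by a decoy receptor without a signaling domain (Il1r2). In macrophages Il1b, Tnf and Il6 are classical targets of NF-κB, whereas IL-10 restrains the same response. Prostaglandin E2 raises cyclic AMP in macrophages, through which it is known to shift the balance of these cytokines. The comparison asked which of them differed in TAMs once tumor cells could no longer make prostaglandins.

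**Figure D1:**
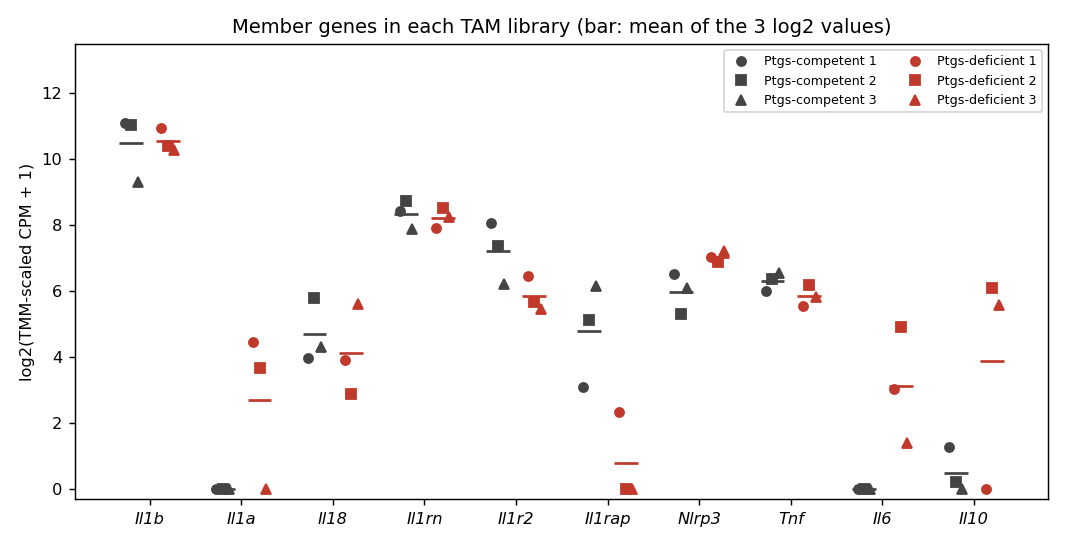
Level of each member as log2(TMM-scaled CPM + 1) in the 3 Ptgs-competent (grey) and 3 Ptgs-deficient (red) libraries, where each symbol is a library and each bar the mean of the log2 values. Il1b was the most abundant member in all 6 libraries, Il1a and Il6 lay at 0 in every Ptgs-competent library, and Il10 was high in Ptgs-deficient replicates 2 and 3 only.

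Il1b (ENSMUSG00000027398; GRCm38 chromosome 2, 129364570 to 129371139, minus strand) was the most abundant member, ranked 79 among all genes of the table by mean CPM. It lay at 2178, 2128 and 640.4 CPM in Ptgs-competent replicates 1, 2 and 3 and at 1995, 1342 and 1239 CPM in the Ptgs-deficient replicates. The groups overlapped, with the lowest value in the library with few macrophage markers. The means were 1649 ± 874 and 1525 ± 410.0 CPM (SD, n = 3 each). The log2 fold change, Ptgs-deficient over Ptgs-competent as throughout, was -0.11 ± 0.45 (SE) with a 95% interval from -1.11 to 0.89 and an adjusted p of 0.9995 (edgeR quasi-likelihood test). Its sign depended on the libraries used, at 0.14 without Ptgs-competent replicate 1 and -0.45 without Ptgs-competent replicate 3. A change in Il1b of either direction was therefore not detectable within that interval.

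Il1a (ENSMUSG00000027399; chromosome 2, 129299610 to 129309972, minus strand) lies 54597 bases from Il1b and encodes the ligand IL-1α, which is active without cleavage by caspase-1. It had 0 counts in all 3 Ptgs-competent libraries, which allows at most 0.478, 0.492 and 0.647 CPM (3 counts; such limits cover counting error only). In the Ptgs-deficient libraries it had 115, 99 and 0 counts, or 21.0, 11.8 and 0 CPM. A single Ptgs-deficient library thus lacked the transcript as the Ptgs-competent libraries did. Against the limit set by 3 counts per library, its mean was at least 20.3-fold higher in the Ptgs-deficient group. That bound was 10.9-fold without Ptgs-deficient replicate 1 and 30.4-fold without replicate 3. The bounds cover counting error only, and not the spread between libraries. The exact two-sided permutation test of the means gave p = 0.4, where 3 libraries against 3 cannot go below 0.1. Il1a, Il6 and Il10 did not pass the filter of the fit across genes, since each had fewer than 3 libraries with enough counts.

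Il18 (ENSMUSG00000039217; chromosome 9, 50554827 to 50581840, plus strand) encodes a further ligand of the family that inflammasomes mature. It stood at 14.8, 54.7 and 18.8 CPM in Ptgs-competent TAMs and at 14.0, 6.31 and 48.4 CPM in Ptgs-deficient TAMs. The ranges overlapped, and 1 library in each group was well above the other two. The fitted difference was -0.36 ± 1.34 (SE) on the log2 scale (edgeR adjusted p 0.9995.) The interval from -3.35 to 2.63 leaves changes of either direction undetectable at this spread.

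Promoter sequences are shown for Il6 and Il1a, the members without a count in Ptgs-competent TAMs, and for Il1b, which was abundant in both groups. Of the 10 members, 9 had an entry in the promoter table (RefSeq, GRCm38.p6). Each run below is the 250 bases before the annotated start, 5′ to 3′ on the strand of the gene. The coordinates are chr5:30012864-30013113 (plus strand) for Il6, chr2:129309973-129310222 (minus strand) for Il1a and chr2:129371140-129371389 (minus strand) for Il1b. Capitals mark matches on either strand to 5 motifs: NF-κB (matched in Il6 as GGGATTTTCC, where any base was accepted as the fifth), the core of the cyclic AMP response element (CRE; GACGTCA), AP-1 (TGANTCA), C/EBP (TTGNGCAA) and the TATA box (TATAAA).
Il6: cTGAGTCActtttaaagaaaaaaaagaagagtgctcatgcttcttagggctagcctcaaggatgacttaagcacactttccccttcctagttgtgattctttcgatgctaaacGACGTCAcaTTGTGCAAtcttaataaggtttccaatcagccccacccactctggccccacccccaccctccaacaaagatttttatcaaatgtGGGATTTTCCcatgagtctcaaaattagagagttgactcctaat
Il1a: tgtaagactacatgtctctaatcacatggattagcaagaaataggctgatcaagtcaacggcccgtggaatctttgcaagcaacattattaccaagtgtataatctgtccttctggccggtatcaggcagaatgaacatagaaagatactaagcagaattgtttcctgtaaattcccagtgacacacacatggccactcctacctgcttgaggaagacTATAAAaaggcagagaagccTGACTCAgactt
Il1b: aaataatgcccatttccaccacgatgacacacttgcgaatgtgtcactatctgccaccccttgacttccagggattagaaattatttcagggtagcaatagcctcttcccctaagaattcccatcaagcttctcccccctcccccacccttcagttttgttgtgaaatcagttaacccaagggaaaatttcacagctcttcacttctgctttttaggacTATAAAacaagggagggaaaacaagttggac

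In this window Il6 matched the NF-κB, CRE core, AP-1 and C/EBP letters once each, starting 44, 137, 249 and 128 bases before the start. The matched stretches did not overlap each other. Among 32851 windows of the same length in the table, these letters occurred in 0.356%, 2.78%, 6.75% and 2.61%. Il1a matched AP-1 (12 bases before the start) and the TATA box (32 bases), and Il1b matched the TATA box alone (31 bases). The TATA letters occurred in 12.4% of windows. Of the other members with an entry, Il1rn matched AP-1 in 1 of its 3 promoter entries, and Il18 and Tnf matched the TATA letters. The full CRE (TGACGTCA), which contains the core, was matched by 0 of the 9 members. A match is a description of letters and not of a bound site, and the windows do not cover enhancers.

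Il1rn (ENSMUSG00000026981; chromosome 2, 24336853 to 24351494, plus strand), the receptor antagonist, was the second most abundant member. Its values were 345, 429.5 and 235 CPM in Ptgs-competent TAMs and 242, 366 and 303 CPM in Ptgs-deficient TAMs. Groups overlapped over nearly their whole range. The means were 336 ± 97.8 and 304 ± 61.8 CPM (SD, n = 3 each), a fitted difference of -0.15 ± 0.35 (SE) on the log2 scale (edgeR adjusted p 0.9995.) The 95% interval ran from -0.93 to 0.64. Set against the ligand in the same library, there were 15.8, 20.2 and 36.6 Il1rn counts per 100 Il1b counts in Ptgs-competent TAMs and 12.1, 27.3 and 24.5 in Ptgs-deficient TAMs. The balance of antagonist and ligand overlapped between groups, with a difference in the log2 ratio of -0.18 (exact permutation test, p = 0.8). Its sign turned when Ptgs-competent replicate 3 was left out (0.17).

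Il1r2 (ENSMUSG00000026073; chromosome 1, 40074079 to 40125231, plus strand), the decoy receptor, showed the lowest unadjusted p of the members. It was at 268, 166 and 74.2 CPM in Ptgs-competent TAMs and at 86.9, 49.7 and 42.8 CPM in Ptgs-deficient TAMs. The groups overlapped only where Ptgs-competent replicate 3 fell below Ptgs-deficient replicate 1. Means were 170 ± 97.2 and 59.8 ± 23.7 CPM (SD, n = 3 each), which is 2.84-fold lower in the Ptgs-deficient group. The log2 fold change was -1.504 ± 0.574 (SE), with an unadjusted p of 0.0254 and an adjusted p of 0.403 in the edgeR quasi-likelihood test. Over all genes, 8.83% had an unadjusted p under 0.05 and 3.82% had one with a lower value in the Ptgs-deficient group, and Il1r2 was 1 of 7 tested members to have one. The direction was the same in all 13 alternative fits, with log2 fold changes from -1.85 to -1.005 and adjusted p from 0.12 to 0.809.

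Relative to its ligand, the decoy receptor did not overlap between the groups, although its own CPM did. There were 12.3, 7.81 and 11.6 Il1r2 counts per 100 Il1b counts in Ptgs-competent TAMs and 4.35, 3.70 and 3.46 in Ptgs-deficient TAMs. All 3 Ptgs-deficient values lay below the lowest Ptgs-competent one, Ptgs-competent replicate 3 included. In that library Il1r2 (74.2 CPM) and Il1b (640.4 CPM) were both at the lowest value of the Ptgs-competent group. How often the ratio of other genes to Il1b separates the groups was not computed. For single genes, CPM ranges did not overlap for 19% of those tested and, with lower values in the Ptgs-deficient group, for 8.01%. The log2 ratio averaged -3.27 ± 0.36 and -4.71 ± 0.17 (SD, n = 3 each), a difference of -1.44. The exact two-sided permutation test gave p = 0.1, the smallest this design allows, and 0.4 after adjustment over the 4 ratios computed. Leaving out each library in turn gave differences from -1.64 to -1.31. Il1r2 is also abundant in neutrophils, and the 13 neutrophil markers summed to 624 to 757 CPM in Ptgs-competent TAMs and 457 to 532 CPM in Ptgs-deficient TAMs. Of these markers, 5 of 7 tested had a negative log2 fold change, while Retnlg (2.11) and Csf3r (1.04) had a positive one. Retnlg did not overlap between groups, with means of 32.1 CPM in Ptgs-competent and 139 CPM in Ptgs-deficient TAMs. Ly6g, Elane and Mpo had 0 counts in every library. The part of neutrophils in the Il1r2 values was not tested. In sorted bulk samples, fewer cells of a type and less RNA per cell cannot be told apart.

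**Figure D2:**
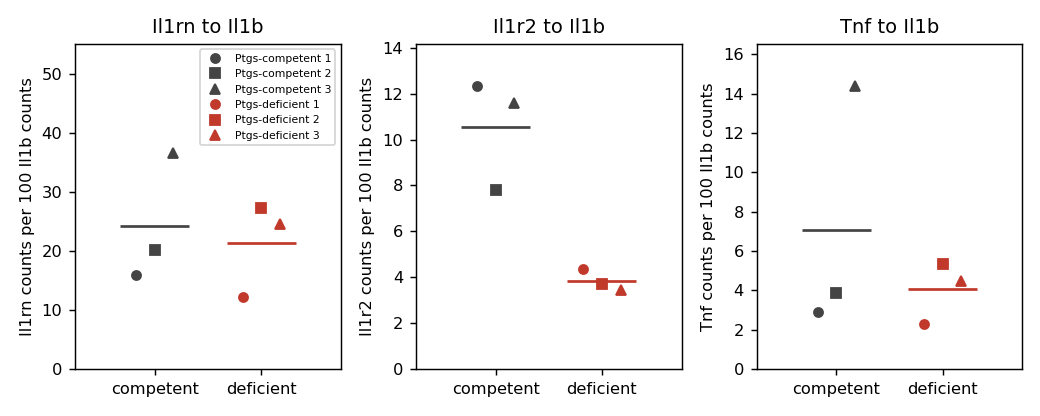
Counts of Il1rn, Il1r2 and Tnf per 100 Il1b counts in the same library (vertical axes), for Ptgs-competent (grey) and Ptgs-deficient (red) TAMs, where symbols are libraries and bars are means of 3. Only the Il1r2 panel shows no overlap, with 7.81 to 12.3 against 3.46 to 4.35.

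Tnf (ENSMUSG00000024401; chromosome 17, 35199381 to 35202007, minus strand) had 2.90, 3.86 and 14.4 counts per 100 Il1b counts in Ptgs-competent TAMs and 2.31, 5.36 and 4.46 in Ptgs-deficient TAMs. The ratio overlapped between groups, and the high value belonged to Ptgs-competent replicate 3, the library with the lowest Il1b. The difference in log2 ratio was -0.52 (exact permutation test, p = 0.7), or 0.19 without that library. On the CPM scale Tnf was at 63.3, 82.2 and 92.0 CPM in Ptgs-competent TAMs and at 46.0, 71.9 and 55.2 CPM in Ptgs-deficient TAMs. The means of 79.2 ± 14.6 and 57.7 ± 13.1 CPM (SD, n = 3 each) gave a fitted difference of -0.46 ± 0.59 (SE) on the log2 scale (edgeR adjusted p 0.9995.) Groups overlapped, and the sign of the difference was negative in all 13 alternative fits, from -0.64 to -0.28.

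Il1rap (ENSMUSG00000022514; chromosome 16, 26581704 to 26730117, plus strand) encodes the accessory subunit that the receptors for IL-1, IL-33 and IL-36 share. It had 47, 206 and 324 counts in Ptgs-competent TAMs and 22, 0 and 0 in Ptgs-deficient TAMs, or 7.49, 33.8 and 69.8 CPM against 4.01, 0 and 0 CPM. The counts of 0 allow at most 0.357 and 0.621 CPM. Ranges did not overlap, which held for 19% of all genes tested and, with lower values in the Ptgs-deficient group, for 8.01%. The Ptgs-competent libraries themselves spanned from 7.49 to 69.8 CPM. The fitted log2 fold change was -4.77 ± 2.43 (SE), with a 95% interval from -10.2 to 0.64, an unadjusted p of 0.0779 and an edgeR adjusted p of 0.707. The direction held in all 13 alternatives, with log2 fold changes from -10.8 (without Ptgs-deficient replicate 1) to -3.86 (without Ptgs-competent replicate 3) and adjusted p from 0.105 to 0.924.

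The ligand-binding partners of Il1rap were uneven. Il1r1, the signaling receptor for IL-1, had 0 counts in every library (named here outside the naming rule, after its values were seen). That allows at most 0.357 to 0.647 CPM. Il1rl2, the IL-36 receptor and likewise outside the rule, had 64, 0 and 32 counts in Ptgs-competent TAMs and 0 in each Ptgs-deficient library, and did not pass the filter. Il1rl1, the receptor for IL-33 known as ST2, had 246, 638 and 2061 counts in Ptgs-competent TAMs and 0, 80 and 0 in Ptgs-deficient TAMs. On the CPM scale these were 39.2, 105 and 444 against 0, 9.53 and 0, without overlap, and the order of the Ptgs-competent libraries was the same as for Il1rap. The log2 fold change of Il1rl1 was -5.89 ± 1.73 (SE), with an unadjusted p of 0.00667 and an edgeR adjusted p of 0.267. It was called by the edgeR likelihood ratio test (adjusted p 0.0422) but not by DESeq2 (0.226) or limma voom (0.125). Its log2 fold change was -4.41 without Ptgs-competent replicate 3 and -13.1 without Ptgs-deficient replicate 2.

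Marker sums of other cell types moved with Il1rap and Il1rl1. The 8 fibroblast markers summed to 157, 158 and 349 CPM in Ptgs-competent TAMs and to 20.1, 51.2 and 16.1 CPM in Ptgs-deficient TAMs. All 5 tested members of that list had a negative log2 fold change, 0 of them called, and Lum was at 0 counts throughout. The highest sum fell in Ptgs-competent replicate 3, which also had the highest Il1rap and Il1rl1. The 8 dendritic cell markers, of which 0 passed the filter, showed the same pattern at a lower level. They summed to 14.5, 15.8 and 42.7 CPM in Ptgs-competent TAMs and to 0.365, 8.34 and 1.45 CPM in Ptgs-deficient TAMs. Fibroblasts lack CD45, on which the cells were sorted. Col1a1 from the fibroblast list had 305, 71 and 572 counts in Ptgs-competent TAMs and 0, 224 and 0 in Ptgs-deficient TAMs. The part of fibroblasts or dendritic cells in the Il1rap and Il1rl1 values was not tested. Of the 6 mast cell or basophil markers, which are listed because mast cells also carry ST2, none had a count in Ptgs-competent TAMs. In Ptgs-deficient TAMs Cpa3 had 153 counts and Mcpt4 1 count in replicate 1, and Tpsb2 had 15 counts in replicate 2, while Mcpt8, Ms4a2 and Kit were at 0 throughout.

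**Figure D3:**
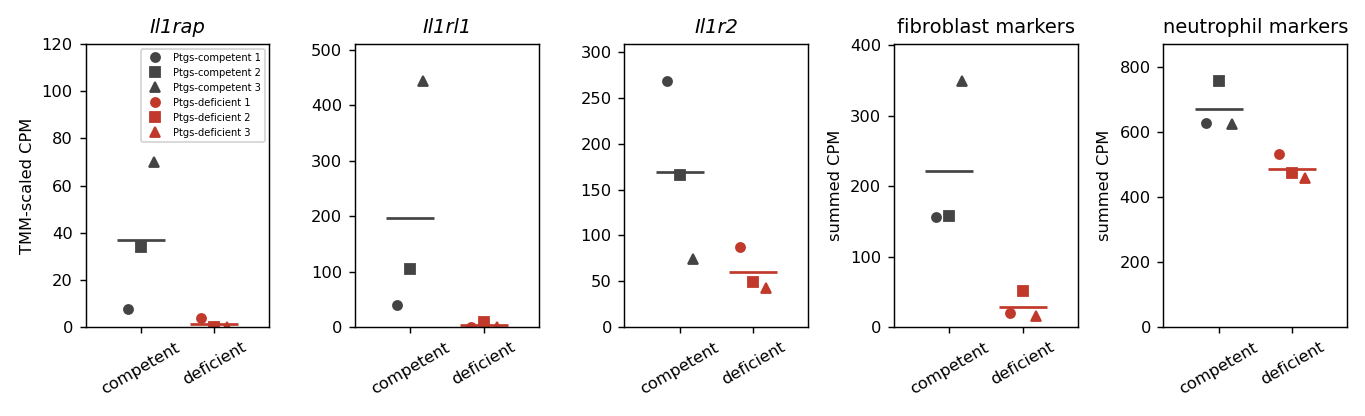
TMM-scaled CPM of Il1rap, Il1rl1 and Il1r2 and summed CPM of 8 fibroblast and 13 neutrophil markers (vertical axes, each from 0) in Ptgs-competent (grey) and Ptgs-deficient (red) libraries, where symbols are libraries and bars are means of 3. Il1rap, Il1rl1 and the fibroblast sum peaked in Ptgs-competent replicate 3, whereas Il1r2 was lowest there among the Ptgs-competent libraries, at 74.2 CPM.

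Nlrp3 (ENSMUSG00000032691; chromosome 11, 59541568 to 59566956, plus strand), the inflammasome sensor, was the only tested member with a positive log2 fold change. It was at 91.5, 38.9 and 67.3 CPM in Ptgs-competent TAMs and at 131, 116 and 149 CPM in Ptgs-deficient TAMs. Each Ptgs-deficient library exceeded each Ptgs-competent one, as was the case in this direction for 11% of all genes tested. Means were 65.9 ± 26.3 and 132 ± 16.3 CPM (SD, n = 3 each), or 2.003-fold higher in the Ptgs-deficient group. The log2 fold change of 1.001 ± 0.509 (SE) had a 95% interval from -0.13 to 2.13, an unadjusted p of 0.0773 and an edgeR adjusted p of 0.705. It kept its sign in all 13 alternative fits, from 0.73 to 1.32, and was called in 0 of them. The summed macrophage markers given above moved with Nlrp3 in the same direction. The summed monocyte markers did so too. The 7 on that list summed to 2488, 1763 and 965 CPM in Ptgs-competent TAMs and to 5138, 6381 and 5650 CPM in Ptgs-deficient TAMs. F13a1 was the largest part of each sum, with group means of 1322 and 3808 CPM. Of 6 tested monocyte markers, 1 was called, against 0.216% of all genes tested. Vcan went the other way, lower in each Ptgs-deficient library (log2 fold change -3.05). The part of either list in the Nlrp3, Il6 and Il10 values was not tested.

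**Figure D4:**
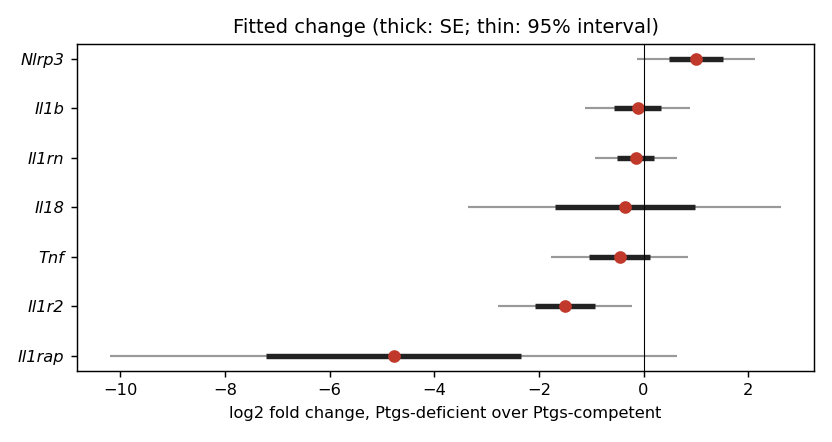
Fitted log2 fold change (Ptgs-deficient over Ptgs-competent, horizontal axis) of the 7 tested members from the edgeR quasi-likelihood fit, with thick lines for the SE and thin lines for the 95% interval. The interval of Il1r2 (-2.78 to -0.23) alone excludes 0 before adjustment, and that of Il1rap reaches from -10.2 to 0.64.

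Il6 (ENSMUSG00000025746; chromosome 5, 30013114 to 30019981, plus strand), the fever and acute-phase cytokine, had 0 counts in all Ptgs-competent libraries and 39, 246 and 8 counts in Ptgs-deficient TAMs. These were 7.12, 29.3 and 1.66 CPM. All 3 Ptgs-deficient libraries contained the transcript, replicate 3 at only 8 counts. The mean was at least 23.5-fold higher against a limit of 3 counts per library, and at least 8.14-fold higher without Ptgs-deficient replicate 2. As for Il1a, these bounds cover counting error only, and not the spread between libraries. The exact two-sided permutation test gave p = 0.1, the smallest possible here. In a fit without the filter on low counts, the edgeR adjusted p of Il6 was 0.501.

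Il10 (ENSMUSG00000016529; chromosome 1, 131019845 to 131024974, plus strand), which encodes the anti-inflammatory cytokine IL-10, split the Ptgs-deficient group. It had 9, 1 and 0 counts in Ptgs-competent TAMs and 0, 565 and 229 counts in Ptgs-deficient TAMs, or 1.43, 0.164 and 0 CPM against 0, 67.3 and 47.4 CPM. In Ptgs-deficient replicates 2 and 3 there were 93.5 and 85.8 Il10 counts per 100 Tnf counts, whereas the other 4 libraries had at most 2.27. The difference in mean CPM was 37.7 (exact permutation test, p = 0.4), and the edgeR adjusted p without the filter was 0.287. Leaving out each library in turn moved that difference from 23.2 CPM (without Ptgs-deficient replicate 2) to 56.8 CPM (without Ptgs-deficient replicate 1, the library at 0). The exact p was 0.1 in the latter case and 0.4 in the other 5. The members at 0 counts differed between Ptgs-deficient libraries, with Il10 in replicate 1, Il1rap in replicate 2, and Il1a and Il1rap in replicate 3.

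Across the members, 0 of 7 tested were called, where 0.216% of all 8793 genes tested were called with both an FDR up to 0.05 and a log2 fold change of at least 1.5 in size. The share was 0.159% for higher and 0.0569% for lower values in the Ptgs-deficient group. The count of members was also 0 with the edgeR likelihood ratio test, which called 2.74% of genes (1.19% lower), with DESeq2 (3.83%, 1.81% lower), with limma voom (1.4%, 0.682% lower) and without the filter (1.89%, 0.972% lower). Over all 10 members, the mean CPM was lower in the Ptgs-deficient group for 6 and higher for Nlrp3, Il1a, Il6 and Il10, the last 3 of which did not pass the filter. Over all genes tested, 50.7% had a positive log2 fold change. Within the members, levels fell in the order Il1b, Il1rn, Il1r2, Tnf, Nlrp3, Il1rap, Il18 in the Ptgs-competent group. In the Ptgs-deficient group the order was Il1b, Il1rn, Nlrp3, Il1r2, Tnf, Il10, Il18, Il6, Il1a, Il1rap, and Nlrp3 did not overlap Il1r2. Neighbours from Il1r2 downwards overlapped in that group, as did neighbours from Il1rn downwards in the Ptgs-competent group.

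A wider list of pathway genes was followed with the members. Of its 61 genes in the table, 46 were tested and 0 were called by the edgeR quasi-likelihood test, with 22 positive and 24 negative log2 fold changes and a median of -0.03. At an unadjusted p under 0.05 there were 2 higher and 2 lower, against 8.83% of all genes. Zfp36, whose product tristetraprolin binds and destabilizes the Tnf mRNA, had the smallest p. It was at 148, 68.6 and 59.9 CPM in Ptgs-competent TAMs and at 275, 691 and 522 CPM in Ptgs-deficient TAMs, without overlap. Its log2 fold change was 2.43 ± 0.49 (SE; edgeR adjusted p 0.0967.) Zfp36 passed the threshold with DESeq2 (adjusted p 2.78e-04), limma voom (0.00851) and the edgeR likelihood ratio test (0.00362). Tnfaip3, the NF-κB feedback inhibitor A20, had a fitted difference of 2.15 ± 0.92 (SE) on the log2 scale (edgeR adjusted p 0.515), and overlapped between groups.

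Among inflammasome genes, 13 of 16 were tested, 8 with a positive and 5 with a negative log2 fold change. Mefv, which encodes the sensor pyrin, was at 150, 112 and 61.0 CPM against 50.7, 17.6 and 44.9 CPM. It lay lower in each Ptgs-deficient library (log2 fold change -1.51 ± 0.67 (SE), edgeR adjusted p 0.555), opposite in sign to Nlrp3. Pycard, the adaptor ASC that links sensors to caspase-1, was at 201, 173 and 52.8 CPM against 217, 313 and 292 CPM. Its log2 fold change was 0.95 ± 0.50 (SE; edgeR adjusted p 0.741.) Casp1 itself, named outside the rule, was at 37.1 ± 28.5 and 54.0 ± 15.5 CPM (SD, n = 3 each).

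Of the 10 tested IL-1 receptor signaling genes, 4 had a positive and 6 a negative log2 fold change. The 2 with the smallest p were Tab2, a TAK1-binding adaptor (-0.83 ± 0.48 (SE), edgeR adjusted p 0.825), and the adaptor Myd88 (0.53 ± 0.47 (SE), edgeR adjusted p 0.9995). Of receptors, Il18rap, the accessory chain of the IL-18 receptor, was at 2.55, 44.0 and 17.7 CPM against 0, 7.86 and 0 CPM (edgeR adjusted p 0.9995). In the IL-6 pathway Socs3, the feedback inhibitor that STAT3 induces, was at 213, 276 and 206 CPM against 420.0, 319 and 352 CPM. Each Ptgs-deficient library was above each Ptgs-competent one, with a fitted difference of 0.65 ± 0.32 (SE) on the log2 scale (edgeR adjusted p 0.690.) Stat3 had a log2 fold change of -0.45 ± 0.34 (SE; edgeR adjusted p 0.974). In the IL-10 pathway the receptor chain Il10rb had a log2 fold change of 0.63 ± 0.54 (SE) and the kinase Tyk2 one of 0.92 ± 0.94 (SE), both with an edgeR adjusted p of 0.9995.

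Finally, the genes most like Il1rn and Tnf over the 6 libraries were listed as a description. Likeness was the root mean square difference of log2 CPM after each gene was centred on its own mean, over 1592 genes of at least 100 CPM. Closest to Il1rn were Cstb, St13 and Mapkapk2, at 0.0689, 0.0731 and 0.127 log2 units. Closest to Tnf were Pfdn1, Hp1bp3 and Rsrc2, at 0.0874, 0.117 and 0.126. The 6 points share library depth and composition.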

How the data were processed

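3′ RNA sequencing libraries (QuantSeq FWD, 800 pg of total RNA, no molecular identifiers stated) of sorted TAMs were analysed from raw counts per gene. The authors deposited these counts after trimming with BBDUK, fqtrim and cutadapt, alignment to GRCm38 with STAR and assignment with featureCounts. Software versions, strand setting and treatment of multi-mapping reads were not given in the sources used here. Reads from opposite-strand overlapping genes (as at Il18 and Il1r2) therefore cannot be assigned with certainty. Genes were tested in R 4.3.3 with edgeR 4.0.16 (filterByExpr, minimum count 10 and total 15; TMM; quasi-likelihood test, two-sided; Benjamini-Hochberg over 8793 genes). A call needed an FDR up to 0.05 together with a change of at least 1.5 on the log2 scale. Libraries held 4431184 to 8760679 counts. SE is the absolute log2 fold change over the square root of F, and 95% intervals use the total degrees of freedom of the fit. Members that did not pass the filter and 4 log2 count ratios (pseudocount 1) were compared by exact two-sided permutation tests. Alternatives used other scalings, the likelihood ratio test, DESeq2 1.42.0, limma 3.58.1 voom, no filter, a replicate block and leaving out each library. Positions come from GENCODE M21 (GRCm38), whereas the paper names its own GRCm38 annotation release for the counts. Tested on simulated data with known changes, the fit missed many of the changed genes, so that a count of 0 calls does not show that genes were unchanged. Members, lists and rules were chosen with earlier results of these data known. Named by rule were all members, pathway genes that were called, the 2 with the smallest p in each role, and the 3 genes of at least 100 CPM most like Il1b, Il1rn and Tnf (those for Il1b are not reported here). Marker lists for macrophages, neutrophils, monocytes, dendritic cells, NK cells, T or B cells, mast cells or basophils, melanoma cells and fibroblasts were summed in CPM.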

Additional observations from a re-analysis of the deposited data

How the results depend on the processing

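Members had 0 calls in all 13 alternative fits. The number of genes called over the whole table was 19 and became 241 with the likelihood ratio test, 328 with DESeq2, 123 with limma voom, 252 without the filter and 77 with a replicate block. It was 0, 11 and 25 without Ptgs-competent replicates 1, 2 and 3, and 2, 4 and 3 without Ptgs-deficient replicates 1, 2 and 3. Calls on the pathway list went from 0 to 2 (likelihood ratio), 1 (DESeq2), 1 (limma voom), 3 (no filter) and 2 (replicate block), which were Zfp36 in each, Il1rl1 with the likelihood ratio test, without the filter and with the block, and Txnip without the filter. The cause was not tested. Same-numbered libraries did not deviate together (correlations from -0.0488 to -0.0218), and differently numbered ones lay at -0.0169 to 0.0452. With 3 libraries per group, values this close to 0 cannot show whether the numbers pair the libraries. The Il1b log2 fold change was 0.048 with the replicate block. Under the block, a sign-flip test of the Il1r2 to Il1b difference (-1.44) gave an exact p of 0.25, the smallest 3 pairs allow. Over the fits without a library, the log2 fold change ranged from -0.45 to 0.14 for Il1b, -1.53 to 0.45 for Il18 and -0.30 to 0.070 for Il1rn, and the log2 ratio from -0.44 to 0.19 for Il1rn to Il1b and -0.97 to 0.19 for Tnf to Il1b. Il1r2, Il1rap, Nlrp3 and Tnf kept their direction in all 13 fits. The median of all genes moved to 0.39 under limma voom and 0.26 under the block. For Il1a, Il6, Il10 and Il1rap, depth sets a limit of 0.357 to 0.647 CPM in libraries at 0 counts.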

Other observations

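Other ligands of the IL-1 family were scarce in these TAMs. Il33 had 120 counts in Ptgs-deficient replicate 2 and 0 elsewhere, and Il1f9 (IL-36γ) had 13 counts in Ptgs-competent replicate 3 and 22 in Ptgs-deficient replicate 1. Il1f5, Il1f6, Il1f8 and Il1f10 had 0 counts in every library. The NK cell list summed to at most 1.08 CPM in the Ptgs-competent libraries and to 26.3, 5.83 and 16.6 CPM in the Ptgs-deficient libraries, which came mainly from Klrk1. The dendritic cell list reached at most 42.7 CPM, the T or B cell list 7.38 CPM, the mast cell or basophil list 28.1 CPM and the melanoma cell list 99.6 CPM.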
